A study of Bos taurus with 6 samples.

Results

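Expression of 8 genes grouped around lipid export was described in bovine rumen epithelial primary cells (REPC) with and without butyrate. The group holds apolipoproteins, exporters, lipoprotein receptors and a transfer protein. The genes were APOE, APOD, CLU, ABCA1, ABCG1, SCARB1, LRP1 and PLTP. They were found by their symbol, each on 1 of the 32183 entries of the deposited gene tables, and all 8 were measured in every culture. They were chosen by their roles in lipid export with the FPKM and fold changes of these same cultures already known, so their values are given as a description, without p-values. The study followed chromatin state and gene activity in cattle rumen, and the 6 RNA-seq samples used here came from its cell culture experiment. REPC are a primary culture of rumen epithelium, here taken from 1 Holstein bull calf aged 2 weeks that had received milk replacer only. Both groups consisted of these cells, with no genetic change named in the labels. The 3 butyrate cultures had received 5 mM butyrate for 24 h, and the 3 control cultures had received none. The study calls the 3 cultures of a group biological replicates, but the cells came from 1 calf and the labels do not say how the cultures were split. All p-values therefore measure the spread between cultures, which may be technical.

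APOE is a secreted apolipoprotein that takes up cholesterol and phospholipid and is bound by endocytic receptors. ABCA1 passes lipid from the plasma membrane to lipid-poor apolipoproteins and ABCG1 passes it to high density lipoprotein, and both genes are textbook targets of the liver X receptors, which sense oxysterols. Butyrate is a fermentation product that the rumen epithelium absorbs and oxidises, and it also inhibits histone deacetylases.

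Expression was measured as FPKM, the number of fragments scaled to transcript length and to the mapped fragments of the culture. The FPKM values summed to 678035 to 681912 in a control culture and to 619401 to 629037 in a butyrate culture. From the confidence bounds deposited with the FPKM, a depth of 5756609 to 6186809 effective fragments was approximated for each culture. Fold changes are differences of mean log2(FPKM + 0.1) between butyrate and control, a scale that understates the change of weakly expressed genes. In limma, 15813 genes were tested, those whose FPKM averaged 0.1 or more over the cultures. A gene passed the 5% FDR when its Benjamini-Hochberg adjusted p was under 0.05, and it was a DEG when its Bonferroni p was under 0.05 and its log2 fold change exceeded 2 in size, the thresholds of the study. The median log2 fold change of all tested genes was 0.10, and it was 0.23 after rescaling to TPM (each culture's FPKM scaled to the same total) and -0.05 after quantile normalization.

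APOE showed the largest fold change of the 8 genes, whereas CLU differed by more in FPKM. Its FPKM was 6.32, 6.52 and 5.56 in the control cultures and 121, 137 and 131 in the butyrate cultures. Every butyrate culture lay far above every control culture. The highest upper confidence bound among the controls was 9.26 and the lowest lower bound after butyrate was 110. Mean FPKM was 6.13 ± 0.508 (SD, n = 3) in control and 130 ± 7.70 (SD, n = 3) after butyrate, a ratio of means of 21.2 and a log2 fold change of 4.38 (SE 0.08). In order of mean FPKM among all listed entries, APOE stood at place 7664 in control and at place 904 after butyrate. The bounds implied about 20 to 23 fragments on APOE per control culture and 426 to 526 per butyrate culture, so the control level was the less precise. APOE is listed at chr18:53040105-53042793. In bulk RNA, a gain or loss of cells of a type and a change of RNA per cell cannot be told apart.

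**Figure D1:**
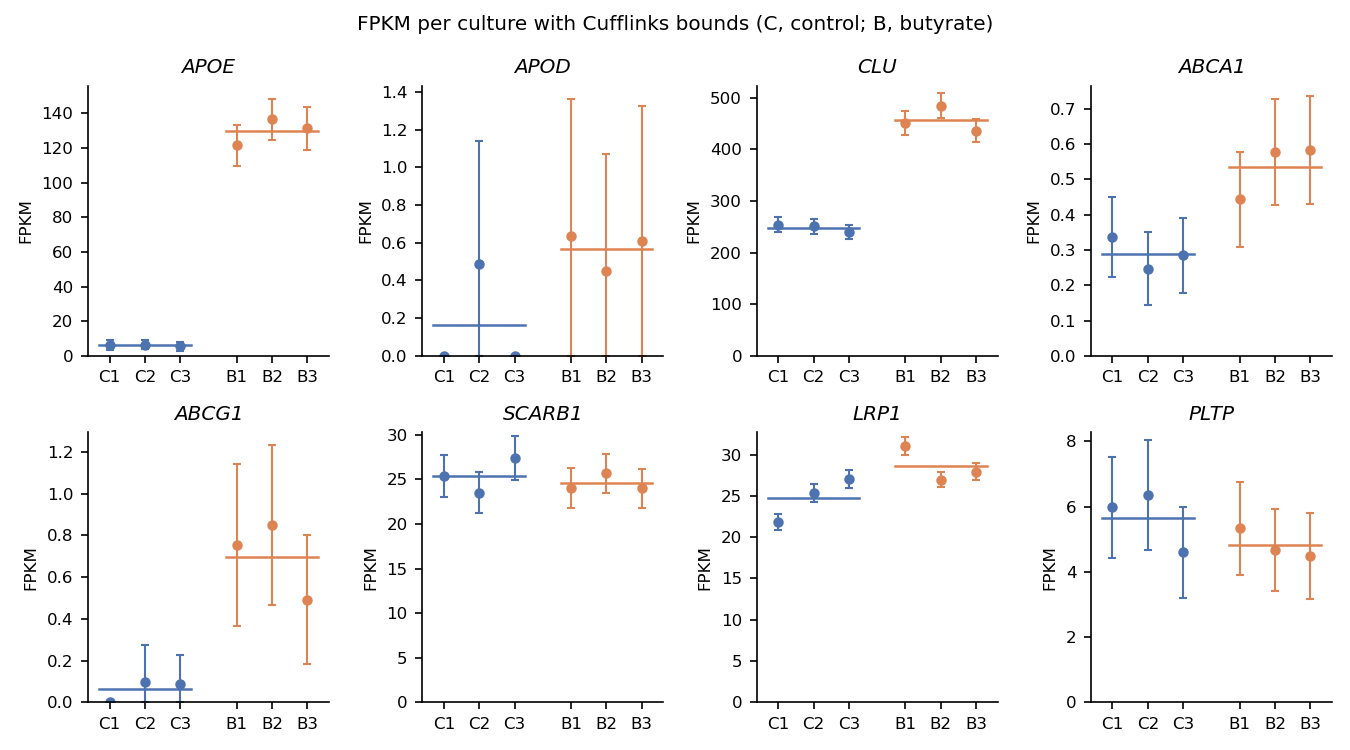
FPKM of each of the 8 genes on a linear axis from 0, 1 panel per gene, with 1 point per culture (C1 to C3 control, B1 to B3 butyrate), error bars from the lower to the upper Cufflinks bound and a horizontal line at each group mean. APOE moved from between 5.56 and 6.52 to between 121 and 137, whereas the cultures of SCARB1, LRP1, PLTP and APOD overlapped between the groups.

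CLU, also named apolipoprotein J, is a secreted chaperone found on lipoproteins, and it was the most abundant of the 8 transcripts in both groups. Its FPKM was 254, 251 and 240 in control and 452, 485 and 436 after butyrate, and the groups did not overlap. Mean FPKM was 248 ± 7.63 in control and 458 ± 25.1 after butyrate (SD, n = 3 each), a log2 fold change of 0.88 (SE 0.05). After rescaling to TPM the log2 fold change of CLU was 1.00, and after quantile normalization it was 1.13. The bounds implied 1173 to 1235 fragments on CLU per control culture and 1547 to 1662 per butyrate culture. That is a smaller rise than in FPKM, where the ratio of means was 1.84. CLU is listed at chr8:11043941-11061303. APOD is a lipocalin that carries small hydrophobic molecules, and it was close to the limit of detection. It was listed at 0, 0.485 and 0 in control and at 0.636, 0.452 and 0.608 after butyrate. The control culture with a value above 0 lay within the butyrate values. The bounds implied 2 fragments over the 3 control cultures and 8 over the 3 butyrate cultures, and the log2 fold change of 1.87 (SE 0.68) depended on the pseudocount, with 3.95 at 0.01 and 0.45 at 1. APOD is listed at chr1:72670596-72685125.

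The 2 exporters were expressed at low levels. ABCG1 was listed at 0, 0.0980 and 0.0889 in control and at 0.755, 0.849 and 0.492 after butyrate. The groups did not overlap, and ABCG1 reached the filter for testing only through the butyrate cultures. Its log2 fold change was 2.34 (SE 0.42), with 3.86 at a pseudocount of 0.01, 0.67 at a pseudocount of 1 and 1.53 after quantile normalization. The bounds implied 3 fragments over all control cultures and 45 over all butyrate cultures. For ABCA1 the FPKM was 0.337, 0.247 and 0.284 in control and 0.443, 0.577 and 0.583 after butyrate. The groups did not overlap here either, yet ABCA1 did not pass the 5% FDR. Its mean was 0.290 ± 0.0454 (SD, n = 3) in control and 0.535 ± 0.0792 (SD, n = 3) after butyrate. The log2 fold change was 0.70 (SE 0.30), and it was -0.05 after quantile normalization. The bounds implied 23 to 36 fragments per control culture and 43 to 59 per butyrate culture, spread over a long transcript. ABCG1 is listed at chr1:143990393-144059315 and ABCA1 at chr8:96270791-96408395.

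The 2 receptors and the transfer protein did not pass either threshold in FPKM as deposited. SCARB1, the receptor through which cells exchange cholesterol with high density lipoprotein, had an FPKM of 25.3, 23.5 and 27.4 in control and 24.0, 25.7 and 24.0 after butyrate. All 3 butyrate values lay within the range of the controls, and the log2 fold change of -0.05 (SE 0.08) was 0.08 after rescaling to TPM. LRP1, a large endocytic receptor that binds APOE, had an FPKM of 21.9, 25.3 and 27.0 in control and 31.0, 27.0 and 27.9 after butyrate. Its highest control culture equalled its lowest butyrate culture to 3 digits. Mean FPKM was 24.7 ± 2.62 in control and 28.6 ± 2.11 after butyrate (SD, n = 3 each), a log2 fold change of 0.21 (SE 0.09). The 2 other scalings brought LRP1 past the 5% FDR, with 0.34 after rescaling to TPM and 0.28 after quantile normalization. The bounds implied 412 to 500 fragments per control culture and 465 to 560 per butyrate culture for SCARB1. For LRP1 they implied 2086 to 2471 and 2848 to 3198, which did not overlap, unlike its FPKM. PLTP, which moves phospholipid between lipoproteins, had an FPKM of 5.98, 6.35 and 4.60 in control and 5.34, 4.67 and 4.48 after butyrate, so that the groups overlapped. The log2 fold change of PLTP was -0.21 (SE 0.15). The lower-coordinate end of the PLTP entry overlaps CTSA, a lysosomal protease gene whose FPKM averaged 89.1 in control and 154 after butyrate. Whether counting used strand is not given in the sources used here. SCARB1 is listed at chr17:53180807-53273732, LRP1 at chr5:56561575-56641501 and PLTP at chr13:75374573-75385200.

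Of the 8 genes, 4 passed the 5% FDR with higher values after butyrate (APOE, APOD, CLU and ABCG1), where 32.5% of all tested genes did so, and none passed with lower values, where 25.9% did. APOE alone was a DEG, where 2.46% of all tested genes were DEGs with higher values and 3.97% in either direction. The groups did not overlap for 4 of the 8 (APOE, CLU, ABCA1 and ABCG1), against 65.0% of all tested genes, and in all 4 the butyrate cultures lay above, as in 36.1% of tested genes, while 28.9% lay below. These counts come from the contrast by which the genes were chosen, so nothing is read from them. In each of 13 alternative settings APOE was a DEG, with log2 fold changes between 4.20 and 4.51, and CLU and ABCG1 passed the 5% FDR. All of these settings refit the contrast by which the genes were chosen, and ABCG1 reached the filter only through the butyrate cultures. They show how far the values depend on processing and lend the calls no further support. APOD passed in 4 of the 13, LRP1 in 2, ABCA1 in 1, and SCARB1 and PLTP in none. The log2 fold change of APOD was 1.45 without control replicate 1 or control replicate 3, and 2.72 (SE 0.37) without control replicate 2, the 1 control with a value above 0, where it passed.

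**Figure D2:**
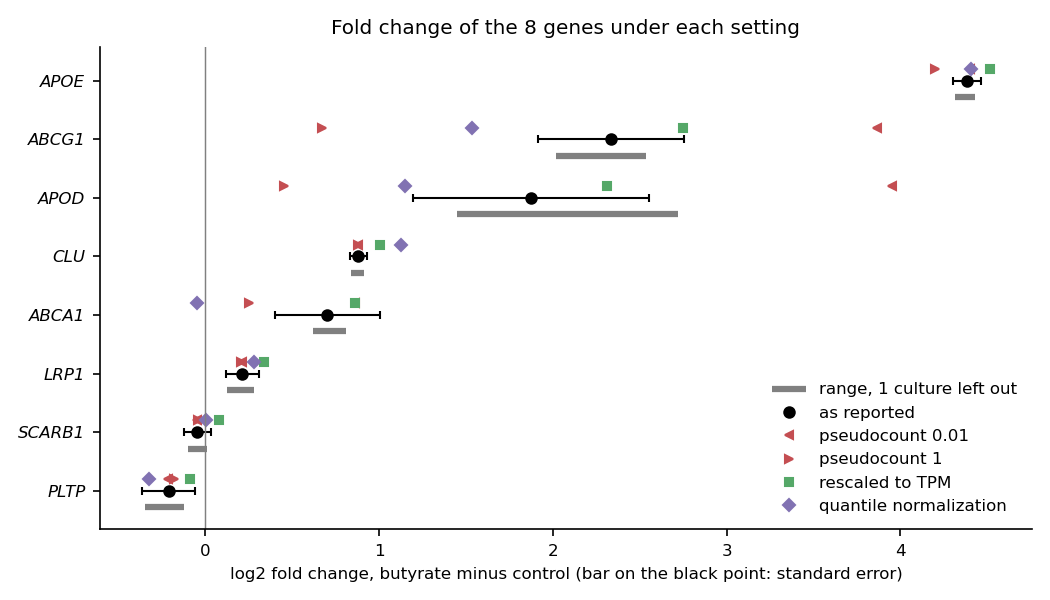
Log2 fold change, butyrate minus control, of the 8 genes as reported (black, with bars of 1 SE), with pseudocounts of 0.01 and 1, rescaled to TPM and after quantile normalization, and a grey bar for the range over the 6 fits that leave out 1 culture. APOE and CLU stayed within narrow ranges (4.20 to 4.51 and 0.84 to 1.13), while APOD ranged from 0.45 to 3.95 and ABCG1 from 0.67 to 3.86.

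FPKM is a level per transcript length, so the levels of the 8 genes can be ordered. In control the order was CLU, SCARB1, LRP1, APOE, PLTP, ABCA1, APOD and ABCG1. The cultures of SCARB1 and LRP1 overlapped, as did those of APOE and PLTP, of ABCA1 and APOD, and of APOD and ABCG1. After butyrate the order was CLU, APOE, LRP1, SCARB1, PLTP, ABCG1, APOD and ABCA1, and only the last 3 overlapped with their neighbours in that order. APOE thus moved from beside PLTP to above both receptors. The summed FPKM of the 8 genes was 311 ± 5.31 (SD, n = 3) in control and 647 ± 29.5 (SD, n = 3) after butyrate. CLU gave 79.9% ± 1.13 of that sum in control and 70.7% ± 0.850 after butyrate, and APOE gave 1.97% ± 0.132 and 20.1% ± 0.950 (SD, n = 3 each). Within a culture, the FPKM of CLU was 38.5 to 43.2 times that of APOE in control and 3.32 to 3.72 times that of APOE after butyrate. The ratio of APOE to LRP1 was 0.251 ± 0.0421 in control and 4.56 ± 0.587 after butyrate (SD, n = 3 each). These ratios do not change when all values of a culture are multiplied by 1 factor, as in rescaling to TPM. Quantile normalization can change them.

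The region around APOE was compared because several apolipoprotein genes lie there. Within 100 kb of APOE, where "before" means at lower coordinates, 11 further entries are listed, of which 7 were tested, and 3 were higher and 1 lower at the 5% FDR, where 58.4% of all tested genes passed in either direction. APOC4 and APOC2, apolipoprotein genes 11.8 and 14.9 kb beyond the end of APOE, were listed at 0 in all 6 cultures. TOMM40, the mitochondrial import channel gene 7.30 kb before APOE, fell from an FPKM of 80.7 ± 1.51 to 31.6 ± 0.311 (SD, n = 3 each), with a log2 fold change of -1.35 (SE 0.05, limma, Benjamini-Hochberg adjusted p = 1.64e-07). PVRL2, a nectin adhesion gene 22.6 kb before APOE, rose from 34.6 ± 1.48 to 60.2 ± 3.64 (log2 fold change 0.80, adjusted p = 1.27e-05). BCAM, a laminin receptor gene 63.7 kb before APOE, was a DEG, also in all 13 alternative settings, and rose from 17.8 ± 0.880 to 135 ± 9.38, a log2 fold change of 2.92 (SE 0.07, adjusted p = 3.19e-08). CBLC, a ubiquitin ligase gene 81.1 kb before APOE, was listed at 0 in all control cultures and at 1.01, 1.17 and 1.12 after butyrate. It is among the 3 counted as higher. CBLC reached the filter for testing only through the butyrate cultures and could not have been called lower. Its log2 fold change ranged from 1.07 to 6.79 over the other pseudocounts, filters and scalings. On the other side, CLPTM1, RELB and CLASRP had log2 fold changes of -0.04, 0.08 and -0.01 and did not pass (adjusted p = 0.650, 0.631 and 0.964). The nearest tested genes on the 2 sides of APOE thus differed from it, TOMM40 with a lower level after butyrate and CLPTM1 with overlapping cultures.

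**Figure D3:**
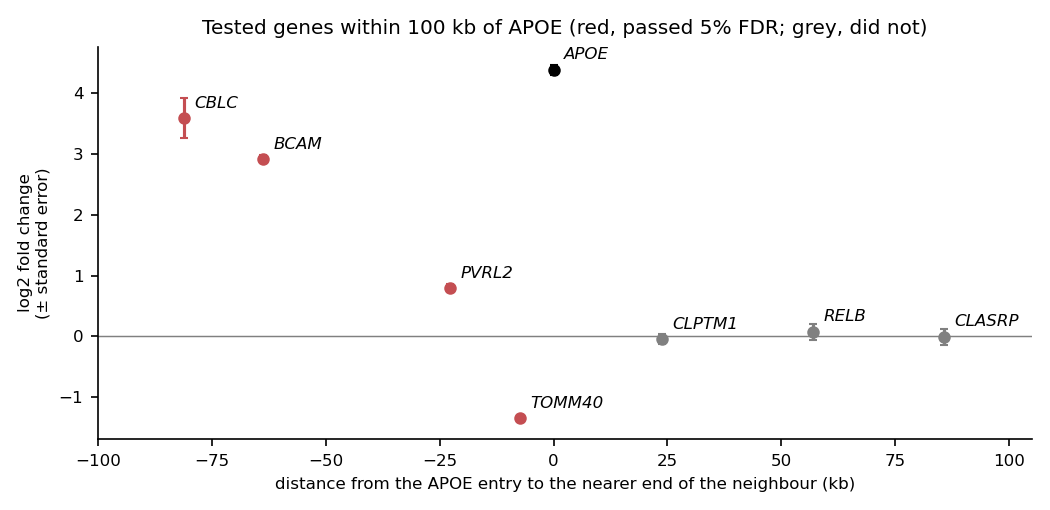
Log2 fold change, butyrate minus control, of APOE and the 7 tested genes within 100 kb of it, against the distance in kb from the APOE entry to the nearer end of the neighbour, negative at lower coordinates, with bars of 1 SE (red past the 5% FDR, grey not past it). Among the tested genes before APOE, TOMM40 lay at -1.35 and BCAM at 2.92, the place of CBLC depends on the pseudocount because its controls are at 0, and the 3 tested genes after it lay between -0.04 and 0.08.

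Likeness to APOE was measured by the root mean square difference between the 6 log2 values, each centred on its gene's mean, over 11024 named genes whose FPKM averaged 1 or more. The 5 most alike were APOL3, HPCAL4, CTRC, CILP2 and PAPLN, with differences of 0.0613, 0.102, 0.109, 0.119 and 0.132. APOL3 and APOE are both apolipoproteins by name. Only CILP2, a cartilage matrix protein gene, was above an FPKM of 1 in the controls, with a mean of 2.22 in control and 43.4 after butyrate. All of these 5 genes had lower control levels than APOE. CTRC was listed at 0 in every control culture. APOL3, HPCAL4, CTRC and PAPLN thus reached the filter of 1 only through the butyrate cultures. Where controls are near 0, the likeness depends on the pseudocount of 0.1. The order also rests on the contrast by which APOE was chosen, so it is a description only.

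Further genes of lipid transport were read from 7 lists that do not hold the 8 genes. Of 161 genes listed, 153 were in the tables and 115 were tested, of which 60 were higher, 15 lower and 40 without a call at the 5% FDR. That is 52.2% higher and 13.0% lower, beside 32.5% and 25.9% of all tested genes, and the median log2 fold change was 0.50 beside 0.10. The lists were compiled with results of these cultures known, and a gene near 0 in the controls is tested only if it is higher after butyrate. These shares, those of the single lists and the adjusted p-values given for list genes are therefore a description. APOLD1, ABCG4, ABCA13, LIPC, MLXIPL, CYP11A1 and PLIN5 averaged under 0.1 FPKM in control and reached the filter only through the butyrate cultures. No adjusted p is given for these genes. No gene of the lists that passed changed sign in any of the 13 alternative settings. For genes near 0 in control, however, the fold change depended on the pseudocount. Over the other pseudocounts, filters and scalings it ranged from 0.51 to 3.75 for APOLD1, from 2.29 to 5.29 for ABCA7, from 1.91 to 3.56 for ABCA2 and from 0.40 to 3.77 for ABCA13. It ranged from 0.62 to 3.12 for LRP3, from 0.63 to 2.19 for SORCS2, from 0.63 to 4.35 for LPL and from 0.41 to 4.18 for MLXIPL. For OSBP2 the range was 0.63 to 2.25, for CYP11A1 0.35 to 3.91, for DGAT2 1.53 to 3.38, for CIDEB 1.06 to 4.18, for CIDEA 1.66 to 2.78 and for PLIN5 0.50 to 4.33.

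**Figure D4:**
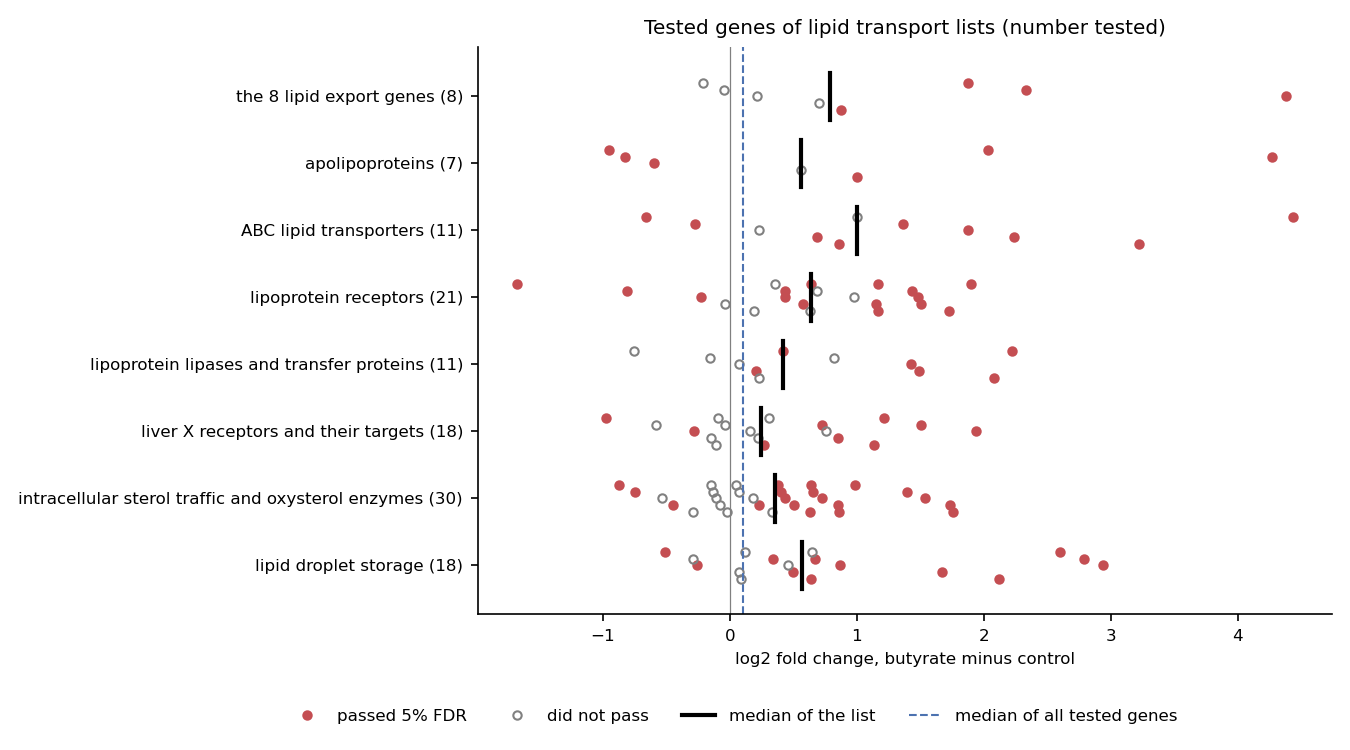
Log2 fold change, butyrate minus control, of each tested gene of the 8 lipid export genes and of 7 wider lists, with filled points for genes past the 5% FDR, a bar at the list's median and a dashed line at the median of all tested genes (0.10). List medians lay between 0.25 for the liver X receptors and their targets and 1.00 for the ABC lipid transporters.

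Among the other apolipoproteins, 7 of 18 in the tables were tested, and 3 rose, 3 fell and 1 had no call. That is 42.9% in each direction, beside 32.5% higher and 25.9% lower of all tested genes. The log2 fold changes of the 7 had a median of 0.56. APOL3, of a family of intracellular apolipoproteins, was a DEG and rose from 0.565 ± 0.0558 to 12.7 ± 0.535 (SD, n = 3 each), a log2 fold change of 4.27 (SE 0.15, limma, Benjamini-Hochberg adjusted p = 1.31e-07). A further entry of the name APOL3 was too low to be tested. APOA1, the main protein of high density lipoprotein, had an FPKM of 3.36, 3.32 and 1.76 in control and 6.38, 5.62 and 4.64 after butyrate, a log2 fold change of 1.00 (adjusted p = 0.00889). APOA1 did not pass without butyrate replicate 1 or 2, and without replicate 1 its log2 fold change was 0.89 (adjusted p = 0.0565). APOLD1, an apolipoprotein L domain protein, had a log2 fold change of 2.03 from control values of at most 0.142, and it did not pass after quantile normalization. APOOL and APOO, which despite their names are subunits of the cristae-organising complex of mitochondria, fell with log2 fold changes of -0.95 and -0.82 (adjusted p = 0.000238 and 4.32e-06). APOM, a lipocalin of high density lipoprotein, fell from 7.83 ± 0.858 to 5.26 ± 1.44 (log2 fold change -0.59, adjusted p = 0.0277). That call was lost without each of 4 of the 6 cultures, with an adjusted p of up to 0.105 without control replicate 3. After rescaling to TPM the adjusted p of APOM was 0.0674.

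In the list of ABC lipid transporters, 11 of 18 genes were tested, with 7 higher, 2 lower and 2 without a call. That is 63.6% higher and 18.2% lower, beside 32.5% and 25.9% of all tested genes. The log2 fold changes of the 11 had a median of 1.00. ABCA7, a phospholipid transporter close in sequence to ABCA1, was a DEG and rose from 0.120 ± 0.0847 to 4.47 ± 0.586 (SD, n = 3 each), with a log2 fold change of 4.44 (SE 0.31, limma, Benjamini-Hochberg adjusted p = 5.05e-06). ABCA7 passed the 5% FDR in all 13 alternative settings but was a DEG in 4 of them. It was not a DEG with no filter on low values, with no mean-variance trend, with a pseudocount of 0.01 or with the replicate block, nor without control replicate 2 or 3 or any 1 of the butyrate replicates, where its log2 fold change was 4.23 to 4.54. ABCA2, a transporter of endosomes and lysosomes, rose from 0.419 ± 0.247 to 4.33 ± 0.795 (log2 fold change 3.22, adjusted p = 0.000147). ABCG4, a relative of ABCG1, was listed at 0 in every control culture and at 0.171, 0.554 and 0.497 after butyrate. It reached the filter only through the butyrate cultures, and it did not pass after quantile normalization. ABCA13 had a log2 fold change of 1.88 from control values of at most 0.0312, and it did not pass after quantile normalization. ABCB1, an exporter of many drugs and lipids, fell from 18.6 ± 1.28 to 11.8 ± 0.904 (log2 fold change -0.66, adjusted p = 0.000321). ABCG2 fell with a log2 fold change of -0.28 (adjusted p = 0.0348), which was lost without each of 5 of the 6 cultures, with an adjusted p of up to 0.111 and a log2 fold change of -0.22 without control replicate 3, and after rescaling to TPM (adjusted p = 0.192).

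Of the lipoprotein receptors and their partners, 21 of 30 genes were tested, and 12 rose, 3 fell and 6 had no call. That is 57.1% higher and 14.3% lower, beside 32.5% and 25.9% of all tested genes. The log2 fold changes of the 21 had a median of 0.64. LRP8, a receptor that binds APOE, fell from 7.04 ± 0.449 to 2.17 ± 0.529 (SD, n = 3 each), with a log2 fold change of -1.68 (SE 0.18, limma, Benjamini-Hochberg adjusted p = 6.62e-05). VLDLR, another APOE receptor, rose from 1.21 ± 0.339 to 2.81 ± 0.547 (log2 fold change 1.17, adjusted p = 0.00407). MYLIP, a ubiquitin ligase and a liver X receptor target, rose from 1.34 ± 0.135 to 3.99 ± 0.427 (log2 fold change 1.50, adjusted p = 8.79e-05). SORT1, a sorting receptor, rose from 4.57 ± 0.565 to 13.0 ± 1.29 (log2 fold change 1.49, adjusted p = 1.66e-05). LRPAP1, the chaperone of LRP1, fell from 229 ± 8.79 to 197 ± 14.6 (log2 fold change -0.22, adjusted p = 0.0109). That call was lost without each of 3 of the 6 cultures, with an adjusted p of up to 0.0535 without butyrate replicate 1. After quantile normalization the adjusted p of LRPAP1 was 0.361. LRP3 and SORCS2 had log2 fold changes of 1.90 and 1.73 at low levels (adjusted p = 0.0193 and 0.00596). LRP3 did not pass without butyrate replicate 1 (adjusted p = 0.0888) or 2. After quantile normalization the adjusted p was 0.116 for LRP3 and 0.0551 for SORCS2. SORL1 was listed at 0 in all controls and at 0.0187, 0.00898 and 0 after butyrate, below the filter.

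Lipoprotein lipases and transfer proteins were represented by 11 tested genes of 19, of which 6 rose, none fell and 5 had no call. That is 54.5% higher, beside 32.5% of all tested genes, of which 25.9% were lower. The log2 fold changes of the 11 had a median of 0.42. LCAT, which esterifies cholesterol on high density lipoprotein with APOA1 or APOE as cofactor, rose from 4.51 ± 0.465 to 12.3 ± 0.451 (SD, n = 3 each), with a log2 fold change of 1.43 (SE 0.11, limma, Benjamini-Hochberg adjusted p = 8.51e-06). ANGPTL4, a secreted inhibitor of lipoprotein lipase, rose from 7.84 ± 0.932 to 22.1 ± 1.12 (log2 fold change 1.49, adjusted p = 5.16e-06). LPL itself was low, at 0, 0 and 0.505 in control and 0.485, 0.872 and 0.987 after butyrate (log2 fold change 2.23, adjusted p = 0.0239). Its groups overlapped, and the call was lost without each of 5 of the 6 cultures. The highest adjusted p was 0.0979, without butyrate replicate 2, at a log2 fold change of 2.13. A further entry of the name LPL had a log2 fold change of 1.77 (adjusted p = 0.00563). LIPC, the hepatic lipase gene, was at 0.0885, 0.0956 and 0 in control and 0.359, 0.501 and 0.906 after butyrate. It did not pass after quantile normalization.

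For the liver X receptors and their targets, 18 of 19 genes were tested, and 7 rose, 2 fell and 9 had no call. That is 38.9% higher, near the 32.5% of all tested genes, and 11.1% lower beside 25.9%. The log2 fold changes of the 18 had a median of 0.25. Of the 2 receptors, NR1H3 rose from 13.6 ± 0.782 to 22.6 ± 1.59 (SD, n = 3 each), with a log2 fold change of 0.73 (SE 0.08, limma, Benjamini-Hochberg adjusted p = 0.000102). NR1H2 fell from 62.9 ± 3.58 to 51.8 ± 2.57 (log2 fold change -0.28, adjusted p = 0.00504), and after rescaling to TPM its log2 fold change was -0.16 (adjusted p = 0.0545). RXRA, a partner of both in DNA binding, rose from 1.33 ± 0.572 to 2.90 ± 0.490 (log2 fold change 1.13, adjusted p = 0.0116). Without butyrate replicate 3 RXRA did not pass (log2 fold change 1.01, adjusted p = 0.0643). RXRB, in the same list and at a higher level, rose from 19.7 ± 1.73 to 23.7 ± 0.678 (log2 fold change 0.27, adjusted p = 0.0204). The RXRB call was lost without control replicate 2, butyrate replicate 2 or butyrate replicate 3, with an adjusted p of up to 0.0654. SCD, a fatty acid desaturase, rose from 42.0 ± 1.92 to 97.7 ± 8.02 (log2 fold change 1.21, adjusted p = 1.59e-06). MLXIPL, a carbohydrate-responsive transcription factor, had a log2 fold change of 1.94 from control values of 0, 0.0773 and 0, and it did not pass after quantile normalization.

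Genes of intracellular sterol traffic supply the exporters, and 30 of 32 were tested. Of these 16 rose, 3 fell and 11 had no call. That is 53.3% higher and 10% lower, beside 32.5% and 25.9% of all tested genes. The log2 fold changes of the 30 had a median of 0.36. NPC1 and NPC2 together release cholesterol from lysosomes. NPC1 rose from 5.28 ± 0.684 to 15.4 ± 1.10 (SD, n = 3 each), with a log2 fold change of 1.54 (SE 0.12, limma, Benjamini-Hochberg adjusted p = 8.28e-06), and NPC2 rose from 52.5 ± 0.726 to 68.6 ± 3.62 (log2 fold change 0.38, adjusted p = 0.000382). NCEH1, which hydrolyses cholesteryl esters, rose from 2.83 ± 0.0787 to 7.62 ± 0.536 (log2 fold change 1.39, adjusted p = 1.63e-05). The oxysterol-binding protein genes OSBP2 and OSBP moved apart, with log2 fold changes of 1.76 (adjusted p = 0.00654, and 0.0744 after quantile normalization) and -0.87 (adjusted p = 0.00154). CYP11A1, the side-chain cleavage enzyme of steroid synthesis, had a log2 fold change of 1.74 from control values of 0, 0 and 0.0832. It did not pass after quantile normalization. The caveolin genes CAV1 and CAV2, whose proteins coat cholesterol-rich membrane pits, fell with log2 fold changes of -0.75 and -0.45 (adjusted p = 2.59e-06 and 5.89e-05).

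Lipid droplet storage, the alternative to export, was represented by 18 tested genes of 18 in the tables, with 10 higher, 2 lower and 6 without a call. That is 55.6% higher and 11.1% lower, beside 32.5% and 25.9% of all tested genes. The log2 fold changes of the 18 had a median of 0.57. DGAT2, which makes triacylglycerol, rose from 0.300 ± 0.185 to 2.73 ± 0.378 (SD, n = 3 each), with a log2 fold change of 2.94 (SE 0.39, limma, Benjamini-Hochberg adjusted p = 0.000216). The droplet fusion genes CIDEB and CIDEA rose with log2 fold changes of 2.79 and 2.60 (adjusted p = 0.00207 and 3.87e-05). CIDEA stands on 2 overlapping entries, and the other had a log2 fold change of 1.78 (adjusted p = 0.0271). PLIN5, a droplet coat protein gene, was at 0, 0 and 0.119 in control and 0.424, 0.361 and 0.644 after butyrate (log2 fold change 2.12). FITM2, which helps droplets bud, fell with a log2 fold change of -0.51 from a mean FPKM of 80.2 to 56.2 (adjusted p = 8.84e-05). MGLL, a monoacylglycerol lipase, had a log2 fold change of -0.26 (adjusted p = 0.0199). It did not pass without control replicate 1 (adjusted p = 0.0512) or 2, nor after rescaling to TPM (adjusted p = 0.163).

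Macrophages, glia and adipocytes express APOE in other tissues, so markers of other cell types were read beside it. Of 10 macrophage markers, PTPRC, C1QA, C1QB and C1QC were listed at 0 in all cultures, and CSF1R and CD163 averaged at most 0.0744 FPKM. The summed FPKM of the macrophage list was 6.62 to 7.89 in control and 12.2 to 14.3 after butyrate, with AIF1 and CD68 higher among 3 tested genes. Of 6 glial markers, 2 were listed at 0 in all cultures and S100B was higher among 3 tested genes, with sums of 8.11 to 10.4 in control and 23.0 to 24.2 after butyrate. The adipocyte list summed to 0.947 to 1.57 and 1.75 to 2.41, with ADIPOQ, FABP4 and LEP listed at 0 in all controls, and LPL higher among 3 tested genes. The endothelial list summed to 1.97 to 2.16 and 6.70 to 8.43, with both tested genes, PECAM1 and VWF, higher and CDH5 at 0. Epithelial markers summed to 3322 to 3466 in control and 6652 to 6696 after butyrate, and 7 of 10 were higher, 1 lower and 2 without a call. Fibroblast markers, COL1A1 and VIM among them, were abundant too, summing to 4356 to 4512 and 6374 to 6715, with 8 of 8 tested genes higher. Smooth muscle markers summed to 3878 to 4081 in control and 1420 to 1826 after butyrate, with 4 lower and 2 higher of 6. Beside these counts, 32.5% of all tested genes were higher and 25.9% lower, so the shares of 1 in 3 for the adipocyte and glial lists were near that of all genes. The part of any of these cell types in the difference of APOE was not tested.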

How the data were processed

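RNA from 6 REPC cultures was analysed, 3 control and 3 butyrate, with groups and replicate numbers taken from the sample labels. Per the labels and the methods of the study, reads of 150 bp were trimmed with Trim Galore 0.4.1 and aligned with STAR, and the authors deposited gene-level FPKM from Cufflinks with a lower and an upper bound per gene. The submitters' processing notes name the genome build UMD 3.1 without a role. The listed starts count from 0 and are printed with 1 added. Chromosomes were assigned by symbols shared with a RefSeq table (assembly ARS-UCD2.0), and no coordinate was taken from it.

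Entries were joined by position and symbol. TNC and FOSL2, the 2 genes with a failed estimate, were left out. After genes averaging under 0.1 FPKM were removed, log2(FPKM + 0.1) of the 6 cultures was fitted in limma 3.58.1 (R 4.3.3) with the trend option. The fit was tested on simulated data. No count model was used, because FPKM are normalized values. Implied fragments were derived from the width of the bounds as if it held counting error only, so they are not read counts. They do not cover the spread between cultures, and for CLU and LRP1 they did not change in step with FPKM. Named are the 8 genes, up to 4 genes past the 5% FDR per direction and list by fold size with DEGs first, a set of textbook partners, genes within 100 kb of APOE and the 5 genes most like it. The members, the lists and this rule were chosen with earlier results of these data known. Some genes that the rule names are not reported here. The alternatives were other pseudocounts, no filter, TPM, quantile normalization, no trend, a replicate block and the removal of single cultures. No sequences are printed, since none were in the sources used here, and the chromatin and methylation data were not used here.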

Additional observations from a re-analysis of the deposited data

How the results depend on the processing

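The log2 fold changes that moved beyond the spread between cultures were those of ABCA1 (0.25 at a pseudocount of 1, -0.048 after quantile normalization), ABCG1 (3.86 at 0.01, 0.67 at 1, 1.53 after quantile normalization), APOD (3.95 at 0.01, 0.45 at 1), APOE (4.20 at 1, 4.51 as TPM), CLU (1.13 after quantile normalization, 1.00 as TPM) and SCARB1 (0.0769 as TPM). The median log2 fold change of all tested genes moved too, from 0.10 to 0.23 as TPM and to -0.05 after quantile normalization. The cause of the moves of single genes was not tested. With a culture left out, DEGs over all genes numbered 100 to 232 higher and 122 to 159 lower, against 389 and 238 with all 6, and fewer cultures were fitted. They numbered 213 higher with no filter, 213 higher and 141 lower with no trend. In the lists at the 5% FDR, ABC transporters had 4 genes higher after quantile normalization and 1 lower with no trend or as TPM (1 to 2 with a culture left out), and 0 DEGs with no filter, no trend or a pseudocount of 0.01 (0 to 1 with a culture left out). Lower genes numbered 5 for sterol traffic after quantile normalization, 1 for lipid droplets as TPM (1 to 2 with a culture left out), 1 for lipases at a pseudocount of 1 or after quantile normalization (0 to 1 with a culture left out) and 1 for liver X receptor targets as TPM.

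Same-numbered control and butyrate cultures had correlations of their deviations of 0.0228, -0.00431 and 0.00177, so the numbers were not taken to pair them. With the replicate block 226 genes were DEGs with higher values, 1 lipase gene was lower and 0 ABC transporters were DEGs. Depth limits APOD and ABCG1 most, with 2 and 3 implied fragments over all controls.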

Other observations

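Genes near the other members were also read. Within 100 kb of LRP1, which did not pass, 2 of 8 tested genes were DEGs with higher values after butyrate and 2 were lower at the 5% FDR, where 2.46% and 25.9% of all tested genes were. The LRP1 region and these genes were picked after the values near all 8 genes were seen, so their counts and adjusted p-values are a description. No tested gene near APOD, CLU, ABCA1 or SCARB1 was a DEG, and ABCG1 had no tested neighbour. NDUFA4L2, a mitochondrial protein gene 22.2 kb before LRP1, was at 0.215, 0 and 0.672 FPKM in control and 28.2, 31.0 and 26.6 after butyrate, a log2 fold change of 6.63 (SE 0.61, limma, Benjamini-Hochberg adjusted p = 2.45e-05). NXPH4, a neurexophilin gene 4.59 kb before LRP1, rose from 0.249 ± 0.164 to 9.74 ± 1.12 (SD, n = 3 each), a log2 fold change of 4.91 (adjusted p = 2.66e-06). Both passed the 5% FDR in all 13 alternative settings, but NDUFA4L2 was a DEG in 3 of them and NXPH4 in 6. Without control replicate 1 or any 1 of the butyrate replicates NDUFA4L2 was no DEG, at log2 fold changes of 6.57 to 6.69, and NXPH4 was none without control replicate 2 or 3 or any 1 of the butyrate replicates, at 4.72 to 5.01. Over all 13 settings the log2 fold change of NDUFA4L2 ranged from 4.54 to 7.95 and that of NXPH4 from 3.11 to 5.40. SHMT2 and NEMP1 fell, with log2 fold changes of -0.69 and -1.44 (adjusted p = 1.95e-05 and 0.00169). Near PLTP, 13 of 15 entries were tested, 4 were higher and 5 lower at the 5% FDR, beside 32.5% and 25.9% of all tested genes, and 1 was a DEG (3.97% of all tested genes), the mitotic ubiquitin enzyme gene UBE2C, which fell from 188 ± 15.3 to 3.59 ± 1.06 (log2 fold change -5.71, adjusted p = 1.27e-07).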
